A study of Mus musculus with 24 samples.

Results

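Glycosaminoglycan synthesis and sulfation genes were examined in hip cap and metatarsal cartilage explants of C57/BL6 mice that had been placed under hydrostatic pressure. The genes were chosen by name for their place in the pathway, with earlier results of these data known. They comprise 6 that build the linker on the core protein, 6 that start and extend the chondroitin chain and 9 that sulfate or epimerize it. A further 8 supply sulfate and sugar donors, 6 are of heparan sulfate and 2 are hyaluronan synthases. All 37 were found among the 52178 genes of the count table. Of these, 36 passed the filter on low counts, and 21283 genes in all were tested. The 4-O-sulfotransferase gene Chst13 did not pass, with 0 to 7 counts in each library that entered the tests.

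Glycosaminoglycans are long sugar chains made in the Golgi on a core protein, or, for hyaluronan, at the cell membrane without one. Chain building starts with a linker of xylose, galactose and glucuronic acid, and the chain then becomes chondroitin, which can be turned into dermatan, or heparan, before sulfate is added at fixed positions from the donor PAPS. In cartilage the main load-bearing chain is chondroitin sulfate on aggrecan, whose negative charge holds water in the matrix. Loss of several of these genes, such as Slc26a2, Papss2 or Chst11, is known to disturb cartilage growth in mice or humans.

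RNA sequencing was performed on 24 libraries, 4 in each of 6 groups: hip caps at 0 MPa (control), 5 MPa and 50 MPa, and metatarsals at the same 3 pressures. Hip caps came from male mice 4 weeks of age, with 2 caps of an animal pooled per library, and metatarsals from embryos of embryonic day 15, with 6 bones pooled per library and no sex given. Explants were cultured for 24 hours, held at the pressure for 1 hour and cultured for another 24 hours, in a medium that differed between the tissues. No allele or agent other than pressure was used, so tissue, age, medium and, in part, sex cannot be told apart in any comparison between the tissues. These are whole explants: fewer cells of a type and less RNA per cell cannot be told apart.

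Library totals ranged from 4185557 to 25104484 estimated counts. The study reported RNA integrity below the usual minimum in all samples. Protein-coding genes held 33.9% to 44.6% of the counts in the hip cap controls used and 50.7% to 57.8% in metatarsal controls. The libraries HC4 (hip cap control, replicate 4) and H502 (hip cap at 50 MPa, replicate 2) stood apart from their groups and were left out of the main fits. They are the libraries that the study excluded too. The fits then hold 22 libraries. The summed level of the 37 genes was 1615 CPM (counts per 1e+06, on library sizes scaled by trimmed mean of M values) in HC4 and 1265 CPM in H502, below every other hip cap. Markers of cartilage went with the tissue label only in part: all 10 cartilage genes, Col2a1 and Acan among them, were higher in hip caps at every pressure, and their sum was 49557 to 78090 CPM in hip cap controls and 1920 to 5092 CPM in metatarsal controls. Markers of skeletal muscle summed to 21.6 to 23.5 CPM in hip cap controls and 1094 to 2578 CPM in metatarsal controls, with 7 of 8 lower in hip caps. Those of fibroblasts and perichondrium summed to 173 to 337 CPM and 2284 to 2505 CPM, with 5 of 5 lower. Osteoclast markers summed to 324 to 517 CPM and 36.3 to 64.3 CPM, with 2 of 5 tested higher in hip caps, and Calcr was at 0 in every metatarsal. Osteoblast markers summed to 1885 to 2892 CPM and 2312 to 4554 CPM, with 5 of 6 higher in hip caps and 1 lower. The part of these cell types in the differences between the tissues was not tested.

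The first question was how the pathway differs between articular hip caps and growth-plate metatarsals. The 37 genes summed to 3687 to 3924 CPM in hip cap controls (n = 3) and 1056 to 1256 CPM in metatarsal controls (n = 4), and the groups did not overlap. In edgeR's quasi-likelihood test, 18 of the 36 tested genes were higher in hip cap controls and 3 were lower at an adjusted p of at most 0.05, where 14.1% of all tested genes were higher and 15.9% lower (29.9% in either direction). At an unadjusted p under 0.05 there were 24 and 3, beside 40.3% of all genes. Of the 37 genes, 23 were higher and 4 lower without overlap between the libraries of the tissues, where 19.6% and 22.8% of all tested genes were. The median log2 fold change of the 36 genes was 0.74, against -0.08 over all tested genes. At 5 MPa, where all 8 libraries share a sequencing run and a library type, 24 were higher and 5 lower, against 18.8% and 19.1% of all genes (37.9% in either direction, and 46.1% at an unadjusted p under 0.05, where 25 and 5 of the 36 genes stood). Without overlap at 5 MPa were 22 higher and 6 lower, against 19.2% and 21.5%. At 50 MPa 16 were higher and 2 lower, against 10.2% and 9.57% (19.7% in either direction, and 30.7% at an unadjusted p under 0.05, where 20 and 4 stood), and without overlap 21 and 4, against 18.4% and 21.4%. Runs were read from a figure of the study. At 0 MPa the hip caps used were all of run 1, and of the metatarsals only the first control, MC1, was. At 50 MPa the hip caps were all unstranded and of run 1, and of the metatarsals only M504 was. Apart from MC1 and M504, tissue thus went with run at 0 MPa and with run and library type at 50 MPa. With HC4 and H502 included, 17, 19 and 7 of the 36 passed at 0, 5 and 50 MPa. Without M504, 7 passed at 50 MPa. With library sizes alone in place of the scaling factors, the median of all genes at 0 MPa moved to -0.97 and that of the 36 genes to -0.16, so that the genes lay 0.80 above all genes, beside 0.82 in the main fit. Within the single run at 5 MPa, 32 of the 36 passed the threshold. The counts under these other settings are given without the share of all genes in each setting.

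**Figure D1:**
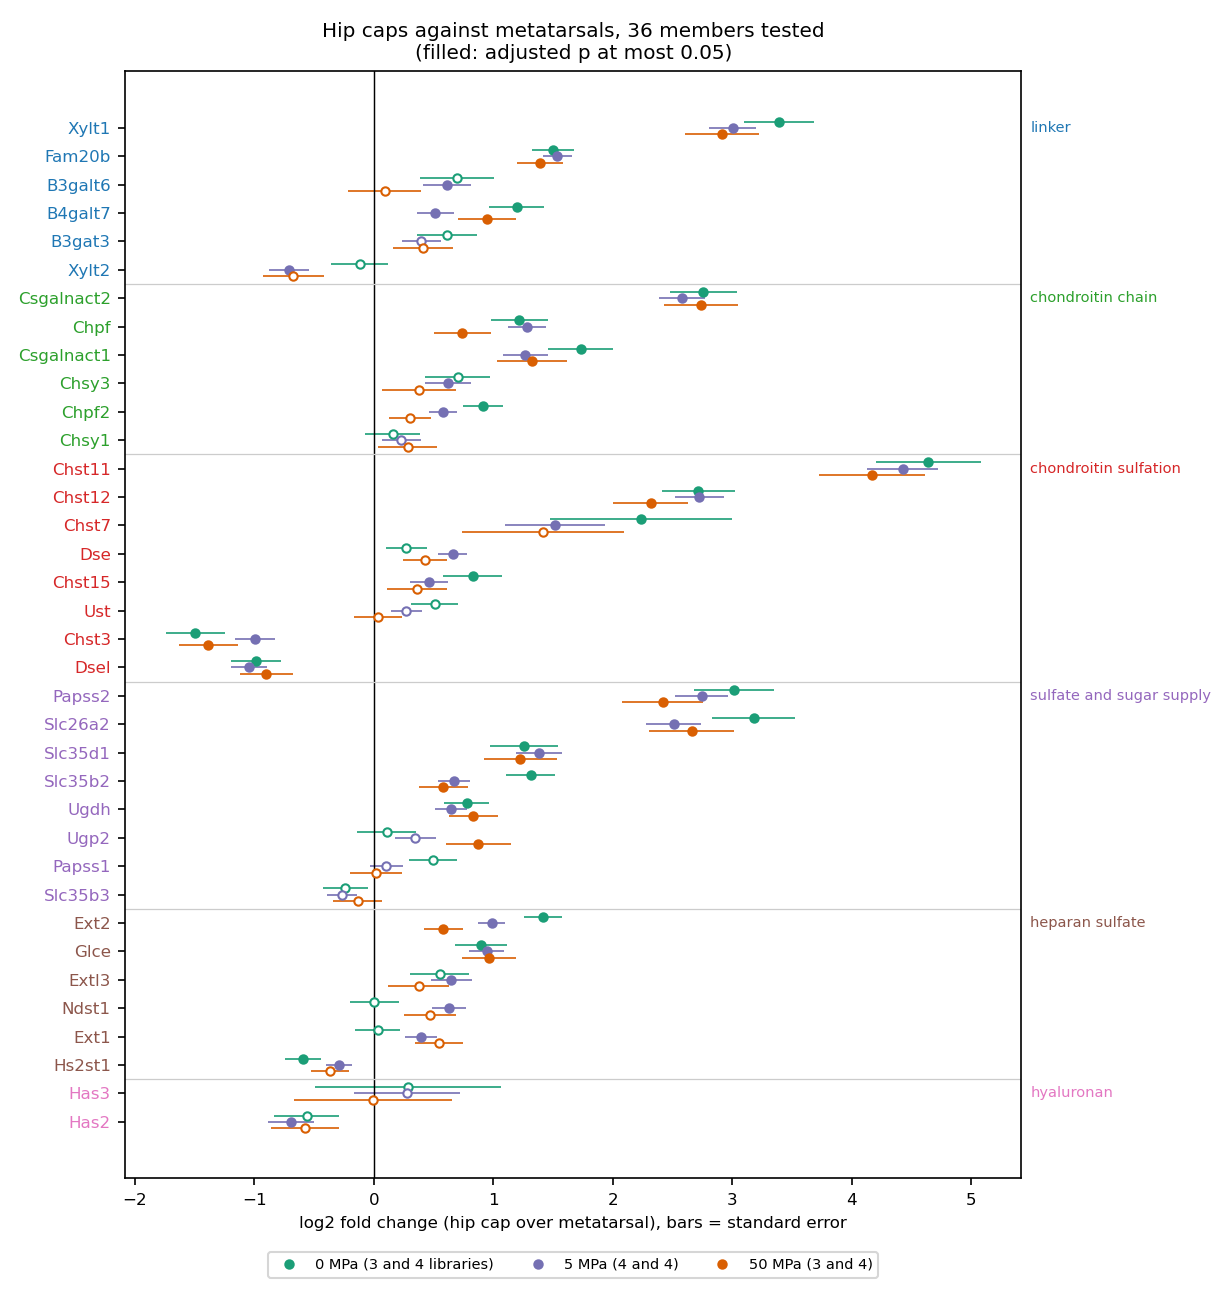
Log2 fold change of each of 36 genes in hip caps over metatarsals at 0, 5 and 50 MPa, with standard errors, ordered by role (filled points have an adjusted p of at most 0.05). Chst11 stands furthest to the right, at 4.64, 4.42 and 4.17, and Chst3 and Dsel stand left of 0 at all 3 pressures. With library sizes alone, genes of small values such as Ugdh and Chst15 at 0 MPa moved to the left of 0.

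Among the 36 tested genes, those of chondroitin sulfation held the highest and the lowest fold change at 0 MPa, with 4 of 8 higher and 2 lower in hip caps. Chst11, the main 4-O-sulfotransferase of cartilage chondroitin, was at 605, 573 and 594 CPM in the 3 hip cap controls and at 18.9, 21.1, 49.5 and 25.9 CPM in the 4 metatarsal controls. No hip cap used came near the highest metatarsal. Its log2 fold change was 4.64, a 24.9-fold difference (standard error 0.44, edgeR adjusted p = 1.6e-07). Chst12, the other 4-O-sulfotransferase that was tested, was at 84.1, 89.8 and 90.6 CPM in hip cap controls and 10.9 to 15.0 CPM in metatarsal controls, a 6.57-fold difference (log2 2.72, standard error 0.31, edgeR adjusted p = 1.2e-06).

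The 6-O-sulfotransferases went in both directions. Chst3, which makes chondroitin 6-sulfate, was at 6.24, 4.61 and 6.37 CPM in hip cap controls and at 15.5, 19.1, 15.2 and 16.7 CPM in metatarsal controls. Every hip cap used was below every metatarsal, a difference of 2.81-fold (log2 -1.49, standard error 0.25, edgeR adjusted p = 9.3e-05). It was also lower at 5 MPa (log2 -0.99, standard error 0.16) and at 50 MPa (-1.38, standard error 0.25), but the libraries left out did not follow: H502 had 29.8 CPM and HC4 9.89 CPM, and with them included Chst3 passed the threshold at none of the 3 pressures (log2 -1.15 at 0 MPa and -0.27 at 50 MPa). At 50 MPa it lost the call without M504 too. Chst7, its relative, was scarce, with 1.91 to 4.76 CPM in hip cap controls and 0.191 to 2.31 CPM in metatarsal controls. These ranges overlapped. Its log2 fold change of 2.24 (standard error 0.76, edgeR adjusted p = 0.031) lost the call without HC1, HC3, M504 or MC1, the first of the metatarsal controls, and the edgeR adjusted p rose to 0.31 at most. With other losses counted, the call held in 23 of 32 other settings.

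The remaining sulfation genes differed less. Chst15, which adds a further sulfate to 4-O-sulfated chondroitin, was higher in hip cap controls (log2 0.83, standard error 0.25, edgeR adjusted p = 0.015), with 25.3 to 32.3 CPM against 14.3 to 24.5 CPM. It held the call in 27 of 33 other settings: it turned to -0.06 with library sizes alone and lost the call without MC1, among others. It shares 17.4% of its transcript's words of 31 bases with the predicted gene Gm10584, so its counts are uncertain. The epimerases that turn chondroitin into dermatan sulfate moved apart. Dse was at 37.7, 51.8 and 43.0 CPM in hip cap controls and 31.1 to 39.2 CPM in metatarsal controls, with overlap (log2 0.27, standard error 0.17, not past the threshold), while Dsel was at 23.6, 35.7 and 23.4 CPM against 40.5 to 66.9 CPM, without overlap (log2 -0.99, standard error 0.21, edgeR adjusted p = 0.0012). Without MC1, Dsel no longer passed. At 5 MPa both differed, Dse with 49.1 to 69.7 CPM in hip caps and 33.0 to 41.3 CPM in metatarsals (log2 0.66, standard error 0.12, edgeR adjusted p = 0.00014), and Dsel at 21.1 to 34.3 CPM against 57.4 to 60.8 CPM (log2 -1.05, standard error 0.15). The uronyl 2-O-sulfotransferase gene Ust passed at none of the 3 pressures.

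**Figure D2:**
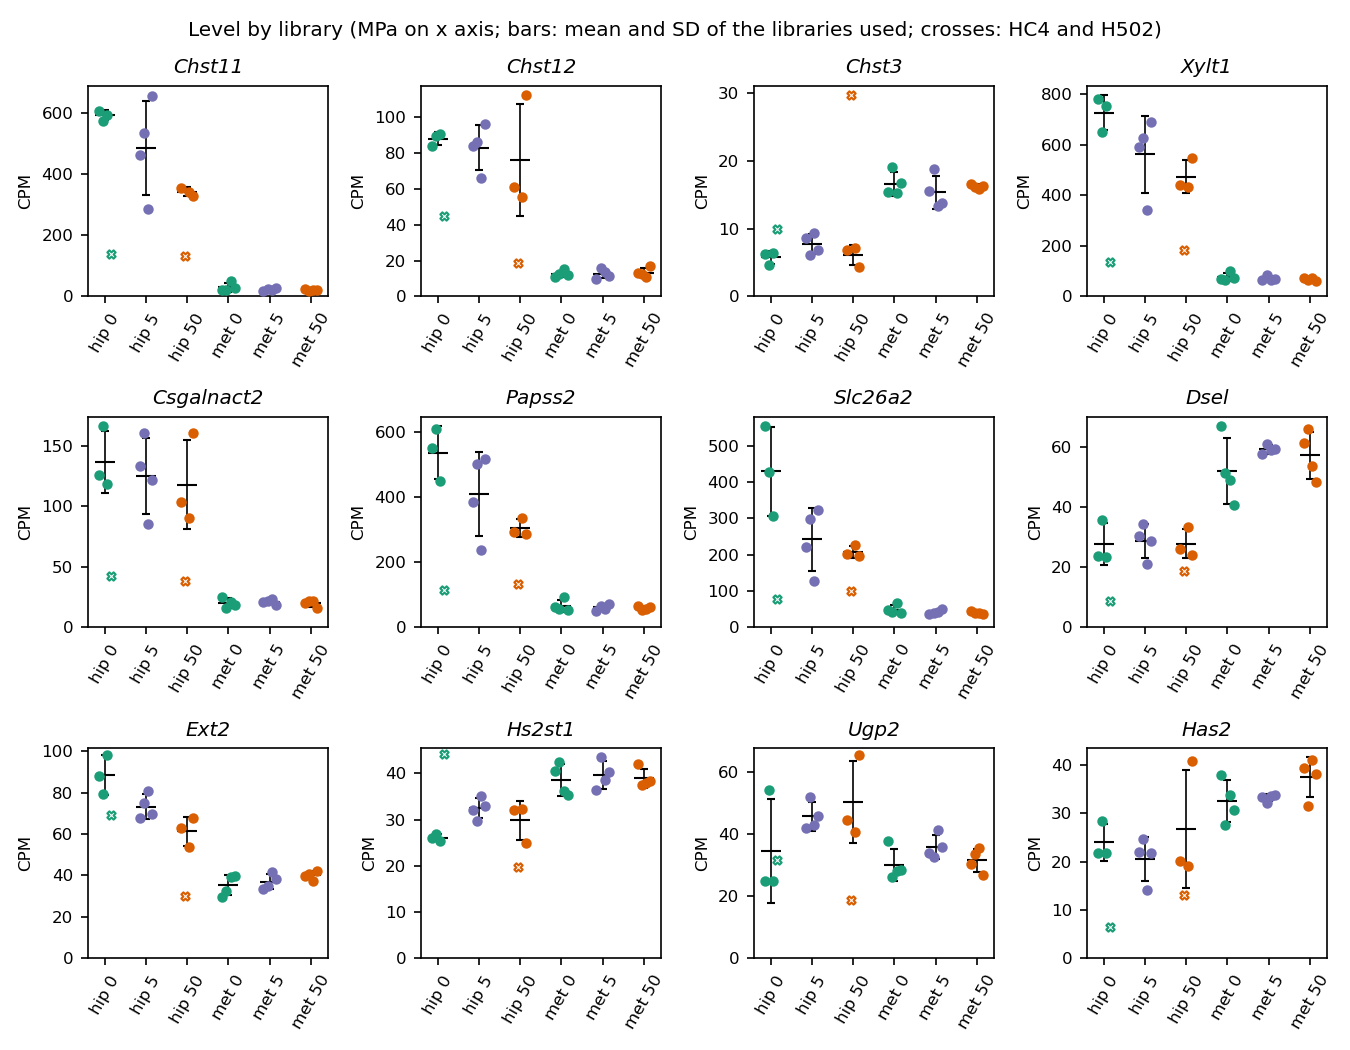
Level of 12 genes in each library, in CPM on a linear axis from 0, by tissue and pressure; black bars give the mean and SD of the libraries used and crosses mark HC4 and H502. Chst11, Xylt1, Papss2 and Slc26a2 are high in hip caps and low in metatarsals, Chst3 and Dsel are low in hip caps, and the crosses of HC4 and H502 lie well below the other hip caps for the first 4 genes.

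Of the 8 genes that supply sulfate and sugar donors, 5 were higher in hip cap controls, 0 were lower and 3 did not pass (Papss1, Slc35b3 and Ugp2). Papss2, which makes PAPS and is the gene of the brachymorphic mouse, was at 552, 611 and 450 CPM in hip cap controls and at 61.2, 56.8, 92.0 and 53 CPM in metatarsal controls, without overlap. The difference was 8.09-fold (log2 3.02, standard error 0.33, edgeR adjusted p = 7.7e-07). Slc26a2, the sulfate transporter of the cell membrane that is mutated in diastrophic dysplasia, was at 553, 428 and 307 CPM against 47.0, 41.3, 66.2 and 39.9 CPM, a 9.06-fold difference (log2 3.18, standard error 0.35, edgeR adjusted p = 6.9e-07). Both stayed without overlap between the tissues at 5 and 50 MPa. Papss1, the other PAPS synthase gene, did not pass at any pressure (log2 0.49, 0.11 and 0.02).

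Of the carriers, Slc35b2, which takes PAPS into the Golgi, was at 35.5 to 47.7 CPM in hip cap controls and 13.6 to 18.6 CPM in metatarsal controls (log2 1.31, standard error 0.20, edgeR adjusted p = 5.0e-05), and its relative Slc35b3 did not pass (log2 -0.24). Slc35d1, a carrier of UDP-sugars into the endoplasmic reticulum whose loss gives a chondrodysplasia, was at 43.0 to 66.9 CPM against 19.0 to 31.7 CPM (log2 1.26, standard error 0.29, edgeR adjusted p = 0.0023). It held the call in 30 of 33 other settings, and lost it without MC1 among others. Ugdh, which makes UDP-glucuronic acid, was at 104 to 120 CPM against 52.3 to 70.9 CPM (log2 0.78, standard error 0.19, edgeR adjusted p = 0.0038). Ugdh held the call in 29 of 33 other settings. It turned to -0.15 with library sizes alone and lost the call without HC3 or M504, among others. Ugp2, which makes UDP-glucose, did not pass at 0 MPa (log2 0.11, standard error 0.25).

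Promoter windows are shown for Chst11 and Chst3, the highest and lowest of the 36 fold changes at 0 MPa, and for Papss2, which has starts of unlike sequence. Xylt1 and Slc26a2, whose fold changes exceeded that of Papss2, had no entry. RefSeq windows on GRCm38.p6, from 250 bases before to 50 after a start site, were found for 28 of the 37 genes, 35 windows in all. Chst11 lies at chr10:82985247-82985546 on the plus strand. Papss2 has a window at chr19:32595465-32595764 and another at chr19:32619755-32620054, both on the plus strand. Chst3 lies at chr10:60219211-60219510 on the minus strand. Capitals mark GGGCGG, a GC box, or AACAAT, the core of the SOX motif, read on either strand.
Chst11: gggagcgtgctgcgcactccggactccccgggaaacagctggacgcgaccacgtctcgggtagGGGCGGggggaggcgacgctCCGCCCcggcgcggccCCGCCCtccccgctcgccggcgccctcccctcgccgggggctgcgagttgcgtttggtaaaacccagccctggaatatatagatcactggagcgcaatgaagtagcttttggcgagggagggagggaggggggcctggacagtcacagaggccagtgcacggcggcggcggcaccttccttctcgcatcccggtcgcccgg
Papss2, first start: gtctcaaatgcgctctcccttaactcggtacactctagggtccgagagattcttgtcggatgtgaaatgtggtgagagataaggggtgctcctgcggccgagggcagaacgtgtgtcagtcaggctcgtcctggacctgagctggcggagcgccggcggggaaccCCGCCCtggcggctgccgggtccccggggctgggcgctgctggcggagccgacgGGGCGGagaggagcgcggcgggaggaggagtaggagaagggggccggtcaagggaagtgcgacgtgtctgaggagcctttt
Papss2, second start: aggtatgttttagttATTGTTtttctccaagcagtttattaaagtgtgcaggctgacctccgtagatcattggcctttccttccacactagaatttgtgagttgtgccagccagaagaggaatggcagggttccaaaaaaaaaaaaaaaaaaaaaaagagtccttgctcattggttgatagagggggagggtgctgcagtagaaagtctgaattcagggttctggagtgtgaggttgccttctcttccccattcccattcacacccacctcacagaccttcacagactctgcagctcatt
Chst3: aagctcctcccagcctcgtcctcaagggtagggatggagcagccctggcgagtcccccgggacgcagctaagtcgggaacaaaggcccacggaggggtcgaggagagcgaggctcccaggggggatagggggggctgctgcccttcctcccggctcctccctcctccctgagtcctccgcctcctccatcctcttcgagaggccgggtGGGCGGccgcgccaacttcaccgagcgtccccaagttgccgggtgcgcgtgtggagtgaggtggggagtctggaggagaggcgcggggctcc
The Chst11 window has a GC content of 71% and 3 GC boxes, and that of Chst3, which went the other way, has 70% and 1. The windows of Papss2 differ, with 66.3% and 2 GC boxes at the first start and 44.3%, no GC box and 1 AACAAT at the second. GGGCGG was found in 71.4% of the 35 windows, beside 35.7% of all 32851 RefSeq windows of this length, AACAAT in 5.71% beside 10.7%, and TATAAA, the TATA box, in 2.86% beside 13.6%. The median GC content was 66.3% over the 35 windows and 52.7% over all. These are letter matches on both strands, each motif counted by itself, and no binding was measured.

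The linker on the core protein was led by Xylt1, the xylosyltransferase that sets the first sugar. It was at 780, 649 and 751 CPM in hip cap controls and at 69.4, 64.2, 99.0 and 70.9 CPM in metatarsal controls, and no hip cap library used came near the metatarsals. The difference was 10.5-fold (log2 3.39, standard error 0.29, edgeR adjusted p = 2.9e-08). Xylt2, the second xylosyltransferase, was at 25.2, 15.1 and 29.8 CPM against 23.8 to 28.2 CPM, with overlap (log2 -0.12, standard error 0.24), and was lower in hip caps at 5 MPa (log2 -0.71, standard error 0.17, edgeR adjusted p = 0.0020). Fam20b, the kinase that phosphorylates the xylose, was at 95.8, 118 and 115 CPM against 31.7 to 42.2 CPM (log2 1.498, standard error 0.17, edgeR adjusted p = 1.6e-06). B4galt7, which adds the first galactose, was also higher (log2 1.19, standard error 0.23, edgeR adjusted p = 0.00047), although at 5 MPa, where it was higher by 0.52, and at 50 MPa it turned to -0.10 and -0.08 with library sizes alone, and 8.53% of its words of 31 bases are shared with Decr2. B3galt6 and B3gat3, which add the last galactose and the glucuronic acid, did not pass at 0 MPa (log2 0.69 and 0.61), although the libraries of the tissues did not overlap.

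Of the 6 genes that start and extend the chondroitin chain, 4 were higher in hip cap controls, 0 were lower and 2 did not pass (Chsy1 and Chsy3). Csgalnact2, which adds the first N-acetylgalactosamine, was at 126, 166 and 119 CPM in hip cap controls and at 24.8, 15.9, 21.1 and 18.1 CPM in metatarsal controls. The difference was 6.76-fold (log2 2.76, standard error 0.28, edgeR adjusted p = 2.7e-07). Csgalnact1, which does the same step and is needed for normal cartilage chondroitin, was at 86.0, 90.7 and 86.0 CPM against 22.4 to 34.7 CPM (log2 1.73, standard error 0.27, edgeR adjusted p = 6.1e-05). Neither gene overlapped between the tissues at any pressure.

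The polymerase subunits differed less. Chsy1 was at 65.1, 63.4 and 66.8 CPM in hip cap controls and 56.4 to 69.4 CPM in metatarsal controls (log2 0.16, standard error 0.23, not past the threshold), and passed at none of the 3 pressures. Chsy3 passed at 5 MPa alone (log2 0.62, standard error 0.19, edgeR adjusted p = 0.015). Chpf, the polymerizing factor, was at 37.3 to 64.1 CPM against 14.3 to 25.0 CPM (log2 1.22, standard error 0.24, edgeR adjusted p = 0.00061). It lost the call without MC1, and held it in 31 of 33 other settings. Chpf2 was at 67.4 to 130 CPM against 44.2 to 62.9 CPM (log2 0.91, standard error 0.17, edgeR adjusted p = 0.00027) and turned to -0.01 with library sizes alone. It shares 41.9% of its words of 31 bases with Smarcd3, so reads of the neighbours cannot be fully told apart.

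Heparan sulfate genes were mixed. Ext2, a subunit of the heparan polymerase mutated in multiple osteochondromas, was at 88.2, 79.3 and 98.2 CPM in hip cap controls and at 29.8, 32.6, 39.4 and 39.5 CPM in metatarsal controls (2.67-fold, log2 1.42, standard error 0.16, edgeR adjusted p = 1.1e-06). Its partner Ext1 was at 37.5 to 42.7 CPM and 36.1 to 47.7 CPM, and the groups overlapped (log2 0.03, standard error 0.19). Glce, the epimerase, was higher (log2 0.90, standard error 0.22, edgeR adjusted p = 0.0035), turned to -0.01 with library sizes alone and lost the call without MC1. Hs2st1, the uronyl 2-O-sulfotransferase, was at 25.3 to 26.8 CPM in hip cap controls and 35.4 to 42.5 CPM in metatarsal controls, without overlap (log2 -0.59, standard error 0.15, edgeR adjusted p = 0.0051). Without MC1 it no longer passed, and it held the call in 31 of 33 other settings. At 5 MPa Ext1, Extl3 and Ndst1 were higher in hip caps as well, with log2 fold changes of 0.39, 0.65 and 0.63 (edgeR adjusted p = 0.022, 0.0047 and 0.0016), and Ext1 turned to -0.24 with library sizes alone.

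Of the hyaluronan synthases, Has2, the main one of cartilage, was at 21.7, 28.4 and 21.9 CPM in hip cap controls and at 37.8, 27.7, 33.9 and 30.6 CPM in metatarsal controls, with overlap (log2 -0.56, standard error 0.27, not past the threshold). At 5 MPa it was at 14.0 to 24.7 CPM in hip caps and 32.1 to 33.8 CPM in metatarsals, and was lower (log2 -0.69, standard error 0.19, edgeR adjusted p = 0.0072). Has3 followed the library type and not a group: it was at 2.47 to 9.51 CPM in the 6 unstranded libraries and 0.191 to 1.64 CPM in the 18 stranded ones, and it was the 1 gene of 37 whose unstranded and stranded libraries did not overlap. It shares 5.07% of its words of 31 bases with Chtf8, and without strand the reads of overlapping genes cannot be told apart. Has3 passed in no comparison.

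Levels per kilobase of transcript were compared between genes, since CPM alone grows with length. In hip cap controls the highest were Papss2 at 148 ± 22.4 CPM per kb (SD, n = 3), Chst11 at 107 ± 2.96, Xylt1 at 80.6 ± 7.59 and Slc26a2 at 54.9 ± 15.8. From each to the next the libraries did not overlap. In metatarsal controls the highest was Ugdh at 23.5 ± 3.11 CPM per kb (SD, n = 4), followed by Papss2 at 18.1 ± 4.90 and Chsy1 at 14.6 ± 1.41, and these overlapped from each to the next. Chst11, second in hip caps, was at 5.22 ± 2.54 CPM per kb in metatarsal controls. Chst7 and Chst3 were near the bottom in both tissues, with 1.42 ± 0.666 and 0.940 ± 0.161 CPM per kb in hip cap controls and 0.528 ± 0.395 and 2.72 ± 0.291 in metatarsal controls.

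**Figure D3:**
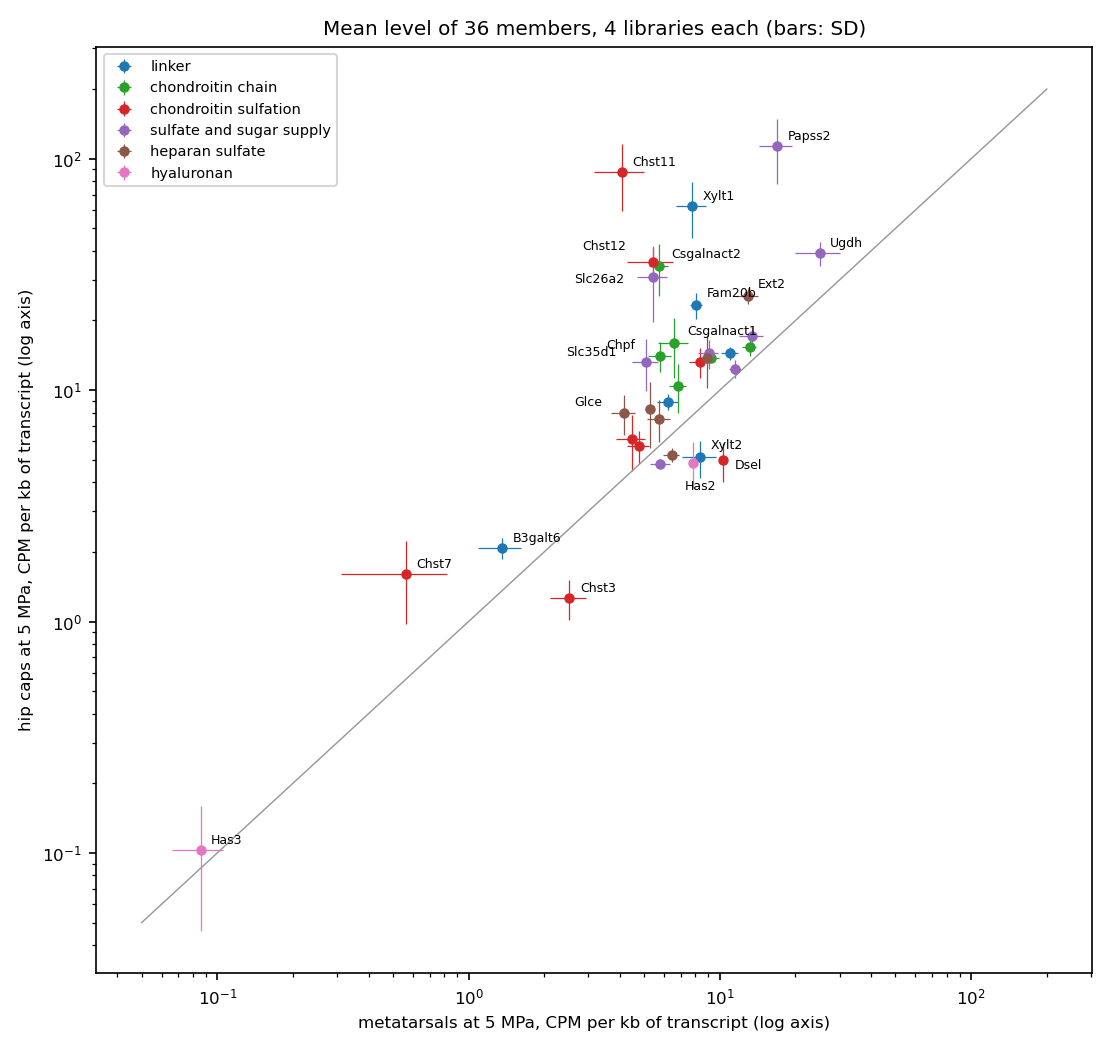
Mean level of 36 genes at 5 MPa in metatarsals and hip caps (4 libraries each), in CPM per kilobase of transcript on log axes, with SD bars and a line of equal level. Papss2, Chst11 and Xylt1 lie highest above the line, and Chst3, Dsel, Has2, Xylt2, Hs2st1 and Slc35b3 lie below it.

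Where 2 genes share a step, the ratio between them was taken within each library, which leaves most of the scaling out. As 0.5 CPM was added to each value, scaling still enters for scarce genes such as Chst7 and Has3. Of 11 such pairs, 5 did not overlap between the 10 hip cap and 12 metatarsal libraries. The log2 ratio of Xylt1 to Xylt2 had a median of 4.97 in hip caps (4.02 to 5.52) and 1.34 in metatarsals (1.11 to 2.03). The ratio of Papss1 to Papss2 had a median of -3.56 (-3.92 to -2.39) and -0.94 (-1.57 to -0.72), so Papss2 exceeded Papss1 in every library and by more in hip caps. Csgalnact1 was below Csgalnact2 in every hip cap (median -0.76, -1.71 to -0.44) and above it in every metatarsal (0.31, 0.13 to 0.72). For Dse to Dsel the medians were 0.81 (0.53 to 1.70) and -0.64 (-0.83 to -0.30), and for Chst3 to Chst7 they were 1.08 (0.30 to 1.76) and 3.25 (2.44 to 4.53). With HC4 and H502 included, Chst3 to Chst7 overlapped, up to 3.23 in hip caps, and 4 pairs remained apart. No test was run on these ratios, and the 5 pairs were among the genes already described.

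**Figure D4:**
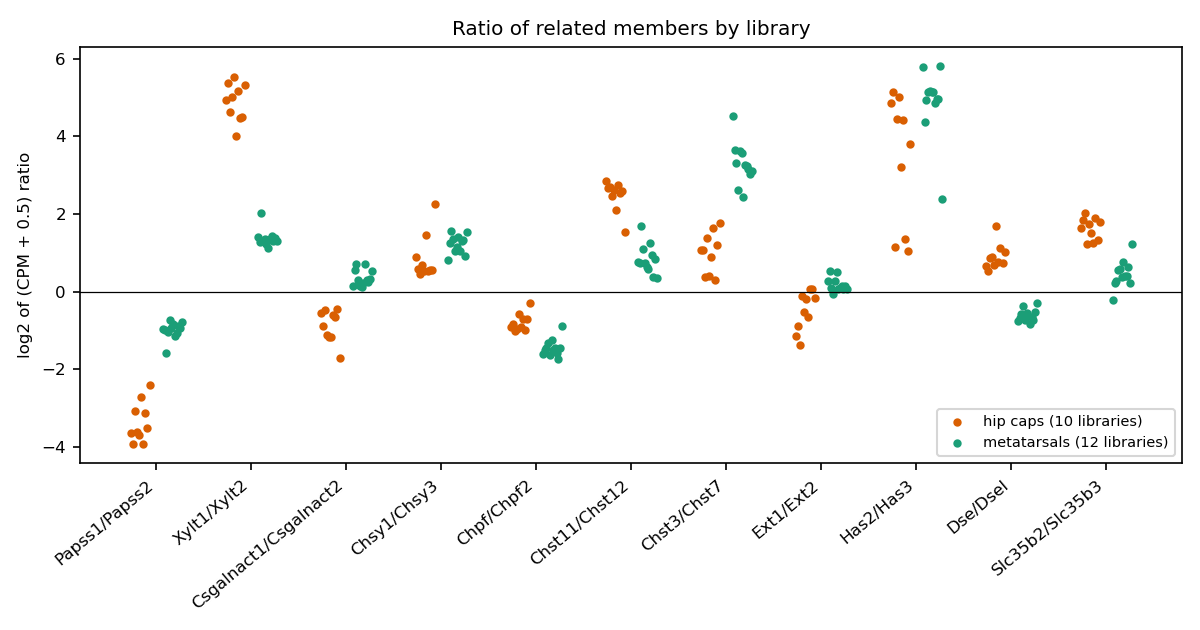
Log2 ratio of 2 genes of the same step in each of 22 libraries, with 0.5 CPM added to each value. In 5 of the 11 pairs the hip caps and metatarsals do not overlap, and Csgalnact1 over Csgalnact2 lies below 0 in every hip cap and above 0 in every metatarsal.

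The rest of the pathway was read from 3 lists. Of 39 tested genes in a list of other synthesis genes, 14 were higher and 7 lower in hip cap controls, with a median log2 fold change of 0.33, where 14.1% of all tested genes were higher and 15.9% lower. The higher ones included Uxs1, which makes UDP-xylose (log2 1.503, standard error 0.20), and Extl1 (2.83, standard error 0.41), and the lower ones the extracellular 6-O-endosulfatases Sulf1 (-0.92, standard error 0.19) and Sulf2 (-4.28, standard error 0.29) and the heparan 6-O-sulfotransferase Hs6st2 (-3.29, standard error 0.39). Of 20 tested breakdown genes 7 were higher and 0 lower (7 and 0 at an unadjusted p under 0.05 by edgeR), led by the hyaluronan-degrading factor Cemip, at 215 CPM in hip cap controls and 3.59 CPM in metatarsal controls (log2 6.02, standard error 0.40). Of 22 core protein genes 15 were higher, such as Acan (log2 4.81, standard error 0.54) and Prg4 (6.78, standard error 1.74), and 3 lower: Vcan, the large chondroitin sulfate proteoglycan of immature tissue (-3.82, standard error 0.30), Gpc3 (-6.44, standard error 0.38) and Agrn (-2.42, standard error 0.25). At 5 MPa the lists held 17 higher and 7 lower, 14 and 0, and 16 and 3, and at 50 MPa 14 and 6, 7 and 0, and 13 and 3, in the same order. Of all tested genes 18.8% were higher and 19.1% lower at 5 MPa, and 10.2% and 9.57% at 50 MPa.

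The second question was how pressure changes the pathway. In hip caps at 5 MPa (n = 4), 0 of 36 genes passed the threshold against controls in edgeR's quasi-likelihood test, where 0.0188% of all tested genes did (0.0094% higher and 0.0094% lower), and DESeq2 also called 0. At an unadjusted p under 0.05, 3 genes were higher and 4 lower, beside 14.8% of all genes in either direction. The lowest unadjusted p belonged to Chpf2 (log2 -0.57, standard error 0.19), Dse (0.57, standard error 0.19) and B4galt7 (-0.70, standard error 0.25), with adjusted p of 0.18, 0.19 and 0.22. Without HC2 these 3 and 1 more gene passed, with the share of all genes in that fit not given. Without overlap were 4 genes higher and 2 lower, where 8.4% and 7.85% of all tested genes were. The hip caps at 5 MPa all belong to another sequencing run than the hip cap controls, so the run difference in this estimate comes from the metatarsals. The run of each library was read from a colour strip in the study's heat map, whose split differs from that in its methods, so the run term is uncertain.

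In hip caps at 50 MPa (n = 3), 1 gene was higher and 2 were lower than in controls, where 3.32% of all genes were higher and 1.86% lower (5.17% in either direction). Ext2 was at 62.8, 53.6 and 67.7 CPM at 50 MPa and 88.2, 79.3 and 98.2 CPM in controls, without overlap (log2 -0.73, standard error 0.16, edgeR adjusted p = 0.019). Chpf2 was at 83.0, 68.9 and 67.7 CPM against 92.5, 67.4 and 130 CPM, with overlap (log2 -0.79, standard error 0.17, edgeR adjusted p = 0.016). Ugp2 was at 44.8, 40.8 and 65.5 CPM against 25.0, 54.2 and 24.8 CPM, so that 1 control lay within the pressure group (log2 1.02, standard error 0.27, edgeR adjusted p = 0.035). All 3 lost the call without HC3, with library sizes alone, with all 24 libraries, with hip caps fitted alone and among hip caps of the same run without batch terms, where the log2 fold changes of Ext2, Chpf2 and Ugp2 were -0.53, -0.40 and 0.53. Chpf2 and Ugp2 also lost it with no batch terms, with library type alone and with sequencing run alone. Ugp2 further lost it without H51, H503, H504, MC1, M51, M54 or any 1 of the metatarsals at 50 MPa (H5 and M5 stand for 5 MPa, H50 and M50 for 50 MPa, with the replicate number last). Library type moved with pressure here: all hip caps at 50 MPa were unstranded, and of the controls used only HC3 was.

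At an unadjusted p under 0.05, 3 genes were higher and 11 lower at 50 MPa, beside 22.6% of all genes. Several of the genes that were high in hip caps had levels below the controls without overlap among the libraries used, and did not pass. The left-out control HC4 had a summed level of 1615 CPM, below the 50 MPa libraries used. With HC4 and H502 included, mean Chst11 was 477 CPM in controls (SD 227, n = 4) and 289 CPM at 50 MPa (SD 105, n = 4). Chst11 was at 355, 341 and 326 CPM at 50 MPa and 573 to 605 CPM in controls (log2 -1.003, standard error 0.38, edgeR adjusted p = 0.12). Papss2 was at 287 to 337 CPM against 450 to 611 CPM (log2 -0.71, standard error 0.31, edgeR adjusted p = 0.18), Slc26a2 at 196 to 226 CPM against 307 to 553 CPM (-0.69, adjusted p = 0.21) and Xylt1 at 434 to 548 CPM against 649 to 780 CPM (-0.65, adjusted p = 0.15), both by edgeR. Among the libraries used, 7 of the 37 were lower and 2 higher without overlap, where 7.56% and 8.19% of all tested genes were. Cartilage markers moved with them: their sum was 32935 to 37628 CPM at 50 MPa, below the 49557 to 78090 CPM of the controls, and Sox9, the master regulator of chondrocytes, and Comp passed as lower (log2 -1.23 and -1.35). Osteoclast markers summed to 538 to 1699 CPM at 50 MPa and 324 to 517 CPM in controls, with 0 of 5 tested past the threshold, 3 at an unadjusted p under 0.05 and Calcr, a defining marker, at 0.219 and 0.138 CPM on average. In the libraries left out, the cartilage sum was 9217 CPM in the control HC4 and 13971 CPM in H502. Their osteoclast sums were 4537 and 239 CPM. The part of these markers in the lower levels was not tested. The summed level of the 37 genes was 2639 to 2968 CPM at 50 MPa.

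**Figure D5:**
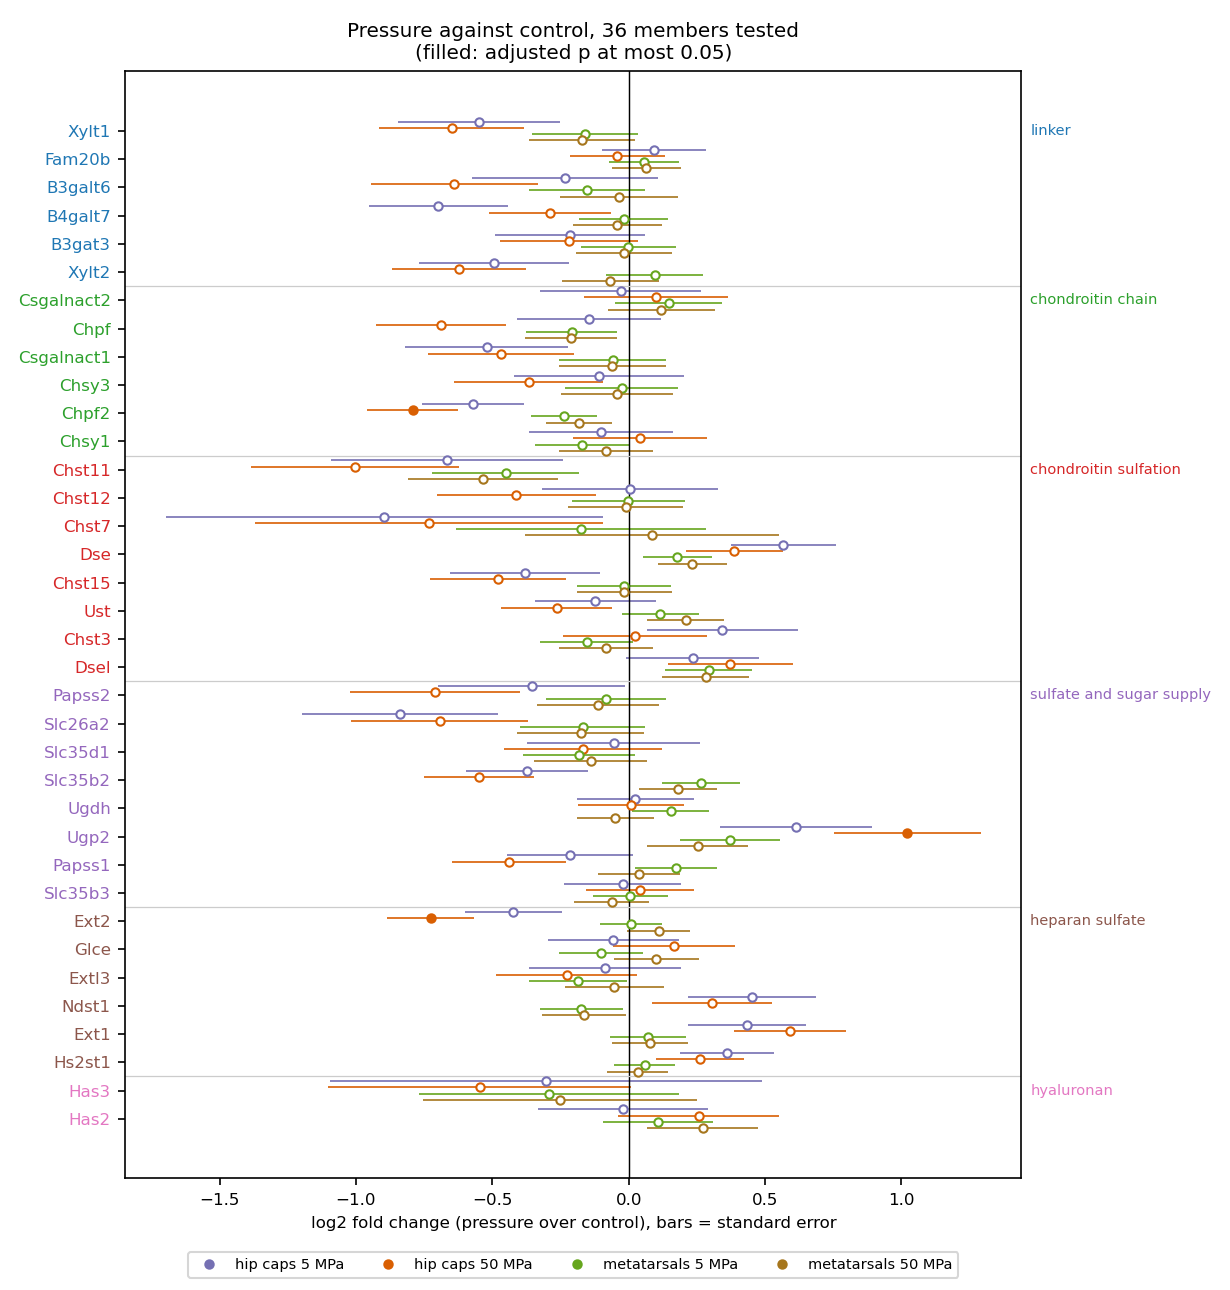
Log2 fold change of each of 36 genes under pressure against the control of the same tissue, with standard errors (filled points have an adjusted p of at most 0.05). Only Ext2, Chpf2 and Ugp2 in hip caps at 50 MPa are filled, none of them with library sizes alone, and the metatarsal points lie closer to 0, between -0.53 and 0.37.

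In metatarsals 0 of the 36 genes passed at 5 MPa and 0 at 50 MPa (n = 4 each), where 0% of all tested genes did at either pressure. In edgeR 0 had an unadjusted p under 0.05 at either pressure, beside 3.24% and 3.89% of all genes. Without overlap were 2 higher and 0 lower at 5 MPa, where 1.65% and 1.24% of all genes were, and 0 at 50 MPa, where 2.38% and 2.11% were. Log2 fold changes ran from -0.45 to 0.37 at 5 MPa and from -0.53 to 0.28 at 50 MPa, with a median standard error of 0.17 at both. The lowest unadjusted p at 5 MPa was that of Ugp2 (log2 0.37, standard error 0.18), Chpf2 (-0.24, standard error 0.12) and Slc35b2 (0.27, standard error 0.14), and at 50 MPa that of Chst11 (-0.53, standard error 0.28), Dse (0.23, standard error 0.13) and Dsel (0.28, standard error 0.16). Chst11 was at 16.6, 25.0, 20.4 and 28.1 CPM at 5 MPa and at 25.1, 16.6, 19.2 and 21.5 CPM at 50 MPa, within the range of the controls apart from a value below it in each. Fitted alone, the metatarsals gave 4 genes higher and 4 lower at 5 MPa at an unadjusted p under 0.05. At 50 MPa they gave 4 and 2. The share of all genes in these fits is not given, so these counts are no result about the 36 genes. In these fits 0 of the 36 passed the threshold. The DESeq2 counts past the threshold were also 0 of the 36. The study reported some changed genes in metatarsals at both pressures by its own DESeq2 fit. The fit of both tissues uses 1 spread for each gene, and the median coefficient of variation of the 36 genes was 14.1%, 10.2% and 10.6% in metatarsals at 0, 5 and 50 MPa and 15.5%, 18.9% and 17.8% in hip caps.

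Whether pressure acted differently in the tissues was tested as an interaction. At 5 MPa 0 of 36 genes passed in edgeR and in DESeq2, beside 0.0188% of all tested genes (0.0094% in each direction), and 1 was higher and 3 lower at an unadjusted p under 0.05 in edgeR, beside 11.2% of all. The lowest p was that of Slc35b2 (log2 difference -0.64, standard error 0.24), Ndst1 (0.63, standard error 0.25) and B4galt7 (-0.68, standard error 0.27). At 50 MPa 0 passed, beside 0.132% of all (0.0799% higher and 0.0517% lower), and 2 were higher and 4 lower at an unadjusted p under 0.05, beside 18.3%. Ext2 came nearest, with a log2 difference between the tissues of -0.84 (standard error 0.18, edgeR adjusted p = 0.055): it was at 62.8, 53.6 and 67.7 CPM in hip caps at 50 MPa, and at 39.9, 40.5, 37.5 and 42.1 CPM in metatarsals, whose controls were at 29.8 to 39.5 CPM. Chpf2 (-0.61, standard error 0.19) and Slc35b2 (-0.73, standard error 0.23) followed, with edgeR adjusted p of 0.10 for both. With DESeq2 all 3 passed at 50 MPa, and Ext2 alone did so with several other settings. The share of all genes in those settings is not given.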

How the data were processed

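Hip cap and metatarsal explants at 3 pressures were sequenced as 24 libraries, and one table of estimated counts per gene was deposited. Per the labels and the study's methods, the authors trimmed reads (Trim Galore 0.6.5), quantified transcripts with kallisto and summed them to genes. Their processing notes name the genome GRCm39 and DESeq2. Estimated counts carry no correction for library type, and stranded and unstranded libraries were mixed. 0 columns belonged to other samples. The strain is C57/BL6 in the labels and C57/BL6J in the methods. The labels write the pressure unit with a small m, and the MPa of the methods was used. Sequencing runs were read from a figure of the study and are uncertain. Each library is a separate sample by its labels. Pools may share a litter, and p-values then measure only the spread between these samples.

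Counts were rounded and tested with edgeR 4.0.16 in R 4.3.3 (robust quasi-likelihood fit, TMM factors, low-count filter by group, terms for group, sequencing run and library type), with Benjamini-Hochberg adjustment within each comparison over 21283 genes and a threshold of 0.05. The p-values are two-sided. DESeq2 1.42.0, limma 3.58.1 (for edgeR) and the other settings served as alternatives. Fold changes are edgeR's, standard errors are the fold change divided by the root of the test's F, and CPM uses TMM-scaled library sizes. In simulated data, 200 genes above a limit on mean counts were changed 2-fold or 4-fold in 1 group. No effect of run or library type was put in, and for the tissue comparisons all other genes had equal levels. In the data 29.9% of all tested genes differed between the tissues at 0 MPa. The simulated rates therefore do not give the power of the tissue tests. Between the tissues at 0 MPa, 17% of the 2-fold and 69% of the 4-fold changes were recovered (20536 genes, 5 false calls). At 5 MPa these were 63% and 92% (20576 genes, 11 false calls). In hip caps at 50 MPa against control they were 20% and 64% (20678 genes, 32 false calls). These false calls exceed what the threshold of 0.05 allows, so adjusted p can be too small in that comparison. The simulated spread was larger in hip caps (median dispersion 0.0947) than in metatarsals (0.0261), while the fit uses 1 spread for each gene. In metatarsals at 50 MPa against control they were 48% and 93% (20537 genes, 3 false calls). Names came from GENCODE M21 (48845 of 52178 genes), and promoter windows from RefSeq on GRCm38.p6; windows are not shown for genes without an entry. Ratios had 0.5 CPM added.

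The members and lists were chosen with earlier results of these data known. All 37 genes could be named. Full statistics are given for those past the threshold among the 10 highest and 10 lowest fold changes between controls of the tissues or past it under pressure or in an interaction, and for the 3 of lowest unadjusted p in each pressure comparison. Other genes are named from the lists, where past the threshold. Comparisons of pressures share their control libraries, and so do those of tissues and pressures.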

Additional observations from a re-analysis of the deposited data

Results flagged for a closer look

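In 5 of 144 groups of 4 libraries, for the 36 tested genes, 1 library lay further from the others than Dixon's 95% limit allows, and chance alone gives about 1 in 20 such groups. Chpf was at 31.3 CPM in the fourth metatarsal library at 50 MPa (M504), where the nearest of the other 3 was at 17.6 CPM. Has3 was at 6.84 CPM in the same library, beside 0.792 CPM. M504 is the 1 unstranded library among the metatarsals. Has3 was at 0.679 CPM in the fourth metatarsal library at 5 MPa, beside 0.470 CPM. Chst15 was at 43.5 CPM in the third hip cap library at 5 MPa (H53), beside 27.3 CPM, and H53 also had the lowest cartilage marker sum of its group, 22202 CPM. Ugdh was at 83.0 CPM in the second metatarsal library at 5 MPa, beside 57.9 CPM.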

How the results depend on the processing

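Xylt1, Csgalnact2, Chst11, Chst12, Papss2 and Slc26a2 stayed higher in hip cap controls and past the threshold under all 33 settings. With library sizes alone, which move the median of all genes, other directions turned. At 0 MPa Chsy1 became -0.76, Chpf2 -0.0068, Chst15 -0.061, Ugdh -0.15, Ugp2 -0.82, Ext1 -0.87, Ndst1 -0.91 and Glce -0.0052. At 5 MPa B4galt7 became -0.098, Chpf2 -0.030, Chst15 -0.17 and Ext1 -0.24. At 50 MPa B4galt7 became -0.078, Chsy1 -0.80, Chpf -0.20, Papss1 -1.04, Ugdh -0.14, Ugp2 -0.16, Slc35b2 -0.39 and Ext2 -0.39. A sign that changed with no call in either setting was not counted as a turn.

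Between the tissues, 15 genes passed at 5 MPa with library sizes alone and 19 with all 24 libraries. At 50 MPa 7 passed with all 24 libraries and 7 without M504. Leaving out a library gave 15 (without the first metatarsal control, MC1) to 25 at 0 MPa, 28 to 30 at 5 MPa and 7 to 20 at 50 MPa. In hip caps at 5 MPa, 3 passed with no batch terms, 2 with library type alone, and 0 to 4 when a library was left out (4 without HC2). In hip caps at 50 MPa, 5 passed with DESeq2 and 5 with at least 10 counts in every library, 1 with library type alone, and 0 with library sizes alone, all 24 libraries, hip caps alone or a single run. Leaving out a library gave 0 (without HC3) to 6 (without H504). For the interaction at 50 MPa, 3 passed with DESeq2, 1 with RLE factors, 1 without mitochondrially encoded genes, 1 with at least 10 counts in every library and 0 to 3 when a library was left out. No gene passed in metatarsals under any of these settings. The cause was not tested in any of these. The counts are given without the share of all genes in each setting, so they are no result about the genes. The summed level of the genes in hip cap controls was 3256 CPM on average with HC4.

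No strong pairing by replicate number was seen over all genes. Deviations of libraries of equal number correlated at 0.0204 on average (-0.165 to 0.154 by group pair), beside -0.00498 for other numbers. A weaker pairing cannot be told from this. With the replicate block, 20, 28 and 18 genes passed between the tissues at 0, 5 and 50 MPa, 3 in hip caps at 50 MPa and 1 in the interaction at 50 MPa. The share of all genes with that block is not given either. Depth limits Chst7, Chst13 and Has3 most, with few counts per library.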
